A study of Mus musculus with 9 samples.

Results

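A whole stem cell gate was set against a computed mix of the 2 fractions that were sorted out of it. The comparison uses 9 of the 9 libraries of the series, 3 of them from the whole gate, called Parent, 3 from its Syndecan-2+ fraction and 3 from its Syndecan-2- fraction. For each replicate number a single share w was fitted so that the Parent library equals w times the Syndecan-2+ library plus the remainder of the Syndecan-2- library, over the 13997 genes, of 20635 symbols listed, that reached 1 CPM in 3 or more of the 9 libraries. Each Parent library was then compared with the mix of its own number, gene by gene, and with both fractions, to find genes whose level in the whole gate no share can give.

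The cells were bone marrow cells of C57BL/6J mice, 10 weeks old, flushed out of femurs and tibias, with no treatment or modified allele named. Parent libraries hold KSL CD34- cells, which carry c-Kit and Sca-1 and lack lineage markers and CD34 at the surface, Syndecan-2+ libraries hold the cells of that gate that stained for the proteoglycan Syndecan-2, and Syndecan-2- libraries those that did not. Each library came from 10000 sorted cells. The labels do not say what share of the gate either fraction makes up, whether the fractions together cover the whole gate, or whether replicates are separate mice, so a p-value here sets a difference against the spread of these libraries alone, and that spread may be technical. The mice were male according to the protocols and of mixed sex according to the series description. Xist stood at 0.634 CPM or lower in all 9 libraries, and the Y-linked gene Ddx3y stood at 27.6, 26.3 and 31.7 CPM in Parent libraries, against 27.6, 27.8 and 31.7 CPM in Syndecan-2+ and 25.6, 27.7 and 27.2 CPM in Syndecan-2- libraries.

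The KSL gate holds the stem and earliest progenitor cells of mouse blood, and its long-term stem cells are known for low surface CD34 and for genes such as Mecom, Procr and Vwf. Multipotent progenitors of the same gate are known for Flt3, CD48 and, on the lymphoid side, Dntt. When pools of cells are combined, their RNA adds up, so the level of a gene in a whole population is the RNA-weighted mean of the levels in its parts, whatever the gene does. A fitted share is therefore a share of RNA, and in bulk libraries fewer cells of a type and less RNA per cell cannot be told apart.

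Levels are CPM, which scale reads to the same total in each library, added up over the transcripts of a gene symbol. By the smallest step between values, the libraries hold 15.5 to 17.0 reads per CPM in Parent, 18.2 to 20.6 in Syndecan-2+ and 18.9 to 19.7 in Syndecan-2- libraries, so that Parent libraries were the shallowest. A count of 3 reads equals 0.146 to 0.194 CPM, and no difference below it could be detected at this depth, where that limit includes counting error alone. The listed transcripts held 53.1 to 54.1% of the total that CPM implies in Parent, 53.2 to 54.5% in Syndecan-2+ and 51.5 to 51.6% in Syndecan-2- libraries. Differences are log2 differences of CPM plus 1, and a call means a Benjamini-Hochberg adjusted p under 0.05 over all 13997 genes in limma. Same-numbered libraries deviated together, so the numbers were treated as pairs, and fits with the number as a block are given where they change a call. Cd34, whose protein is absent from the surface of the gated cells, was present as RNA, at 178, 174 and 170 CPM in Parent libraries. Kit stood at 218, 177 and 193 CPM and Ly6a, the gene of Sca-1, at 4.47, 5.74 and 5.71 CPM there.

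The sorted gene was placed between the fractions. Sdc2 (ENSMUSG00000022261, chromosome 15, 32920723 to 33034730, GRCm38) had 1.81, 2.00 and 1.43 CPM in Parent libraries, against 5.23, 4.17 and 4.34 CPM in Syndecan-2+ and 0.477, 0.203 and 0.316 CPM in Syndecan-2- libraries. Every Parent value lay below every Syndecan-2+ value and above every Syndecan-2- value. Parent minus Syndecan-2+ was -1.02 on the log2 scale (SE 0.19, limma adjusted p = 0.00081) and Parent minus Syndecan-2- was 1.04 (SE 0.19, limma adjusted p = 0.0043). The exact two-sided permutation test of the CPM values gave p = 0.1 for either pair, the lowest that an exact test of 3 against 3 libraries allows. The same-numbered mixes described below held 1.92, 1.42 and 1.48 CPM, which overlap the Parent values.

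Between the fractions, 4205 genes were called (30.0% of those tested). For each of them the position of Parent was taken as Parent minus Syndecan-2-, divided by Syndecan-2+ minus Syndecan-2-, on mean CPM, so that 0 is the Syndecan-2- level and 1 the Syndecan-2+ level. Parent lay between the fractions for 3952 of these genes (94.0%), below 0 for 220 and above 1 for 33. The genes were chosen because the fractions differ in these same libraries, which by itself favours a Parent value between them, most of all at large differences. The median position was 0.298, and the middle quartiles ran from 0.197 to 0.429. Genes higher in Syndecan-2+ had a median position of 0.322 (2874 genes) and genes lower in Syndecan-2+ one of 0.236 (1331 genes). Of the 1146 genes that differed at least 2-fold, 1140 lay between, with a median of 0.279. The other 6, 1700003C15Rik, Apbb1, Evi2a, Hoxb2, Ighv1-58 and Lpcat2, all lay below 0. Hoxb2, a homeobox transcription factor, had 0.0874, 0.166 and 0.563 CPM in Parent libraries, against 1.79, 1.85 and 2.07 CPM in Syndecan-2+ and 0.635, 0.365 and 0.325 CPM in Syndecan-2- libraries.

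The landmark genes of the stem cell pole and of the progenitor pole placed Parent nearer to Syndecan-2- than to Syndecan-2+. Mecom, a zinc finger transcription factor needed by stem cells, had 27.9, 25 and 31.0 CPM in Parent libraries, against 67.1, 61.9 and 75.9 CPM in Syndecan-2+ and 12.5, 14.0 and 13 CPM in Syndecan-2- libraries, a position of 0.269. Vwf, the clotting factor gene that marks platelet-biased stem cells, had 27.7, 25.1 and 25.2 CPM in Parent libraries, against 105, 82.7 and 95.0 CPM in Syndecan-2+ and 7.36, 5.53 and 5.94 CPM in Syndecan-2- libraries, a position of 0.224. Flt3, a cytokine receptor of multipotent progenitors, ran the other way, with 211, 213 and 236 CPM in Parent libraries, against 19.5, 23.3 and 17.0 CPM in Syndecan-2+ and 283, 261 and 293 CPM in Syndecan-2- libraries, a position of 0.228. For these 3 genes the Parent values lay closer to the Syndecan-2- values than to the Syndecan-2+ values and overlapped neither. Procr, the stem cell marker EPCR, had a position of 0.335, Itga2b, the platelet integrin, 0.257, Dntt, the lymphoid DNA polymerase TdT, 0.287, and Cd34 0.185. Cd48 had a position of 0.173 and Slamf1, the stem cell marker CD150, one of 0.156, and number 2 was the high one for both, with 0.0601, 0.337 and 0.0609 for Cd48 and 0.15, 0.337 and 0.0451 for Slamf1 in numbers 1, 2 and 3. Mki67, a cell cycle gene with 464, 418 and 424 CPM in Parent libraries, against 572, 483 and 473 CPM in Syndecan-2+ and 406, 444 and 391 CPM in Syndecan-2- libraries, differed little between the fractions, and its position of 0.225 rests on a small range, with 0.351, -0.686 and 0.404 by number.

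**Figure D1:**
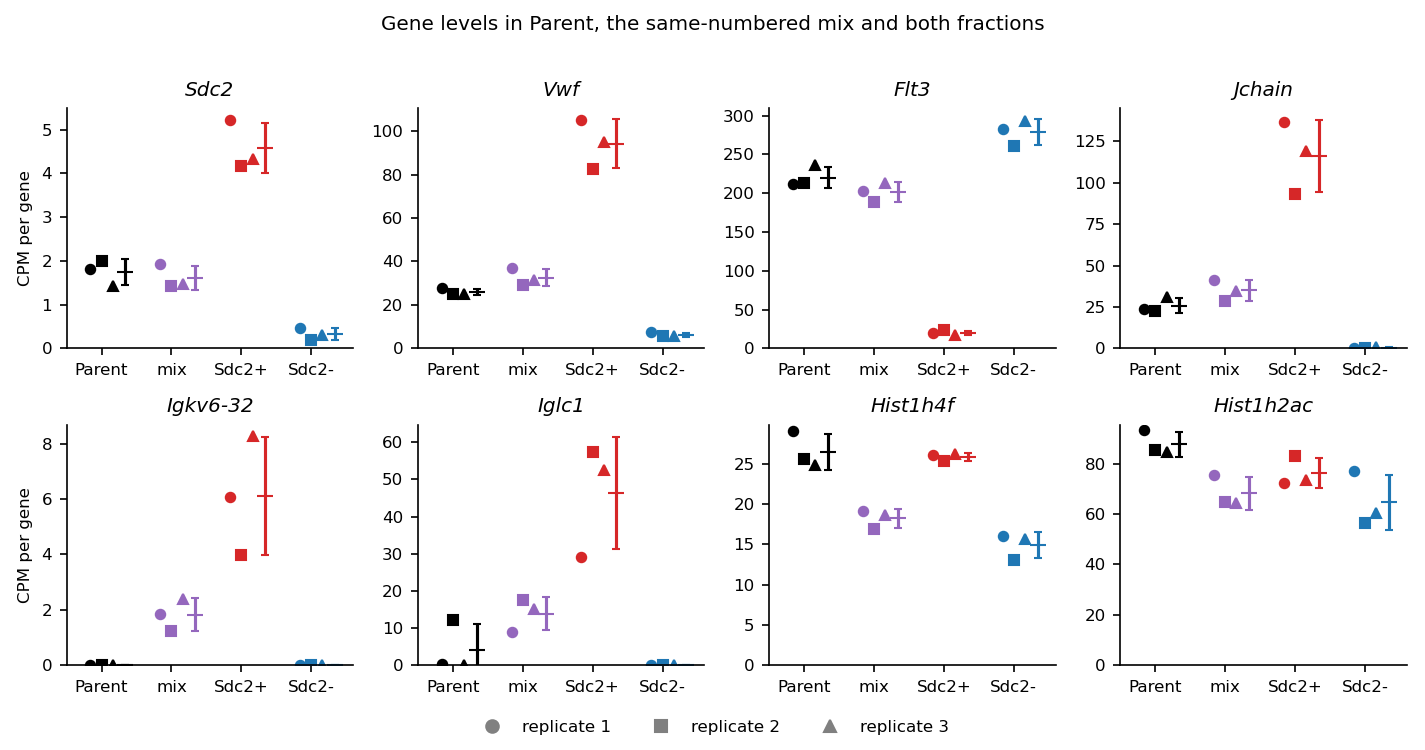
CPM (linear axes) of 8 genes in Parent libraries, in the same-numbered mixes of the log-scale share, and in Syndecan-2+ and Syndecan-2- libraries, with a marker for each replicate number and the mean ± SD. Sdc2, Vwf and Flt3 in Parent lie between the fractions, the immunoglobulin genes Igkv6-32 and Iglc1 lie mostly under the mix, and the histone genes Hist1h4f and Hist1h2ac lie above it.

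A share fitted by least squares on the CPM values of all genes did not behave as a share. It came out at 1.55, 0.959 and 0.791 for replicate numbers 1, 2 and 3 (mean 1.10 ± 0.397, SD, n = 3), and a value above 1 gives the Syndecan-2- libraries a negative weight, so that in number 1 the fitted mix fell below 0 for 407 genes. The genes of 4 ribosomal RNAs or their overlapping transcripts, Gm26917, mt-Rnr2, mt-Rnr1 and Rn18s-rs5, held 87.8, 85.7 and 88.9% of the sum of squares that sets this share. These 4 genes took 18.8, 18.4 and 16.9% of the listed CPM in Parent libraries, against 17.4, 18.3 and 17.3% in Syndecan-2+ and 16.4, 17.4 and 16.9% in Syndecan-2- libraries. Within replicate numbers their share was higher in Parent than in Syndecan-2- each time, in number 3 by very little, and higher than in Syndecan-2+ in numbers 1 and 2, while the ranges over libraries overlap. Gm26917 alone had 53479, 55497 and 48505 CPM in Parent libraries, against 49555, 53693 and 47442 CPM in Syndecan-2+ and 44702, 49974 and 43622 CPM in Syndecan-2- libraries. Within each number it was higher in Parent than in either fraction. Its annotated locus overlaps ribosomal RNA sequence, so which gene its reads come from is uncertain.

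Fits that give less weight to the most abundant genes agreed more closely among the replicate numbers. Least squares on log2 of CPM plus 1, searched between 0 and 1, gave shares of 0.304, 0.306 and 0.289 (mean 0.30 ± 0.00925, SD, n = 3). Weighting each gene by the inverse of its mean CPM plus 1 gave 0.338, 0.369 and 0.345, and the least median absolute error gave 0.353, 0.276 and 0.306. Plain least squares over only the 4205 genes called between the fractions gave 0.289, 0.283 and 0.269. Without the 10 genes of highest mean CPM, plain least squares gave 0.255, 0.653 and 0.594, and after quantile normalization 0.371, 0.753 and 0.937. The log-scale share was taken up for the mix after the CPM-scale share had come out above 1, and counts under other shares are given beside the results.

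**Figure D2:**
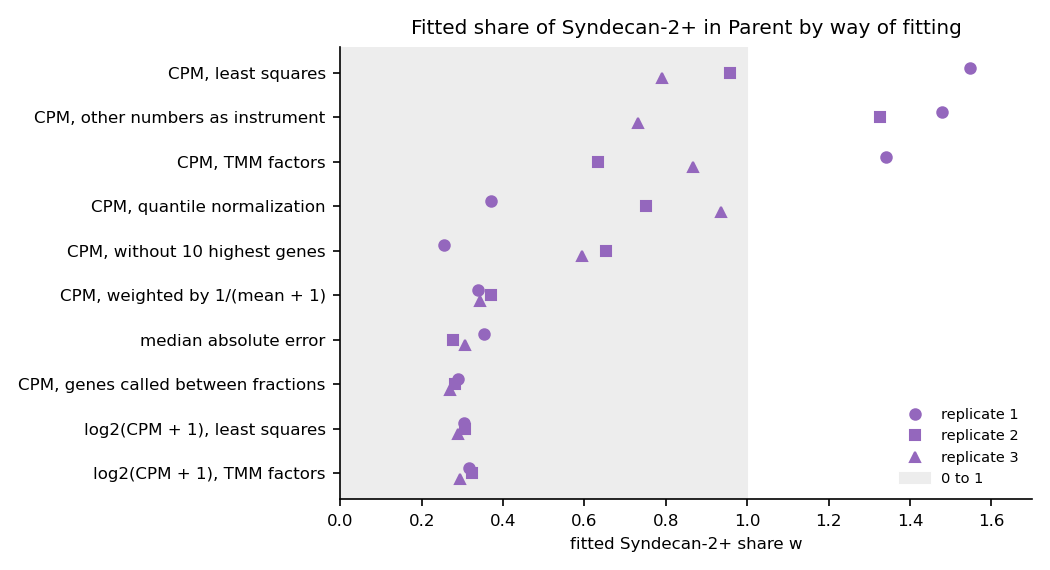
Fitted Syndecan-2+ share w (no unit) for each of 3 replicate numbers under 10 ways of fitting, with the range 0 to 1 shaded. Plain least squares on CPM scatters between 0.791 and 1.55, and the log-scale fit lies between 0.289 and 0.306.

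With the log-scale share, each Parent library lay nearer to its mix than to either fraction. The median absolute log2 difference over all tested genes between Parent and the same-numbered mix was 0.12, 0.130 and 0.130. It was 0.204, 0.212 and 0.220 between Parent and Syndecan-2+, and 0.158, 0.171 and 0.175 between Parent and Syndecan-2-. Parent libraries differed among themselves by 0.165, 0.148 and 0.165, and a Parent library differed by 0.154, 0.149 and 0.134 from the mix of another number. A mix averages 2 libraries, and w was fitted to the Parent library of the same number, both of which lower its distance. Over the 4205 genes called between the fractions the distance to the mix was 0.114, 0.126 and 0.124, against 0.414, 0.427 and 0.452 to Syndecan-2+ and 0.226, 0.222 and 0.238 to Syndecan-2-. These genes were picked for a difference between the fractions in the same libraries, which by itself raises the distances to the fractions. The wider gap is therefore no further measure of how well the mix matches Parent.

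**Figure D3:**
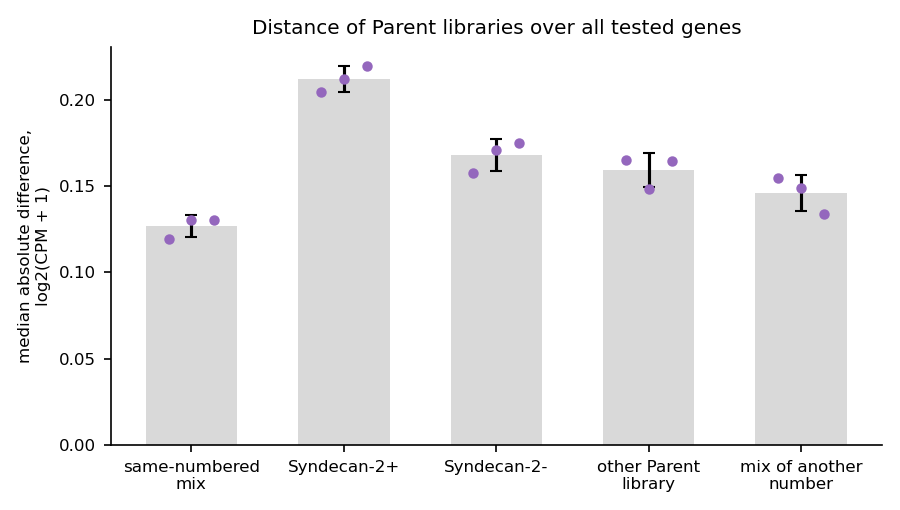
Median absolute log2 difference over all tested genes between Parent libraries and the same-numbered mix, each fraction, another Parent library or the mix of another number, as bars of the mean ± SD of 3 values, with the axis from 0. The bar of the same-numbered mix is the lowest, at 0.12 to 0.130.

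Against these mixes, 0 genes were called above (0%) and 2 below (0.0143%), and both are immunoglobulin variable genes. At an unadjusted p under 0.05, 293 genes stood above and 163 below in limma. With the replicate number as a block, 7 genes were called above (0.050%) and 9 below (0.0643%), and 6 of these 16 are immunoglobulin genes and 2 are replication-dependent histones. The 16 genes were all called with the weighted share and the block, where 28 were called, and 15 of them with the share fitted on the called genes and the block. With the CPM-scale share as first designed, 122 genes were called above and 489 below (4.37% together), and both immunoglobulin genes are among these 611. Shares of 1.55, 0.959 and 0.791 set that mix near the Syndecan-2+ level, so genes high in Syndecan-2+ alone fall below it by design. The CPM-scale calls are therefore no further support for these 2 genes. Over all genes the median Parent minus mix difference was 0.02, and 8115 genes (58.0%) stood above the mix and 5882 below. Under TMM rescaling the median was -0.01 and 45.9% stood above, so small shifts of many genes in a single direction depend on the scaling.

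**Figure D4:**
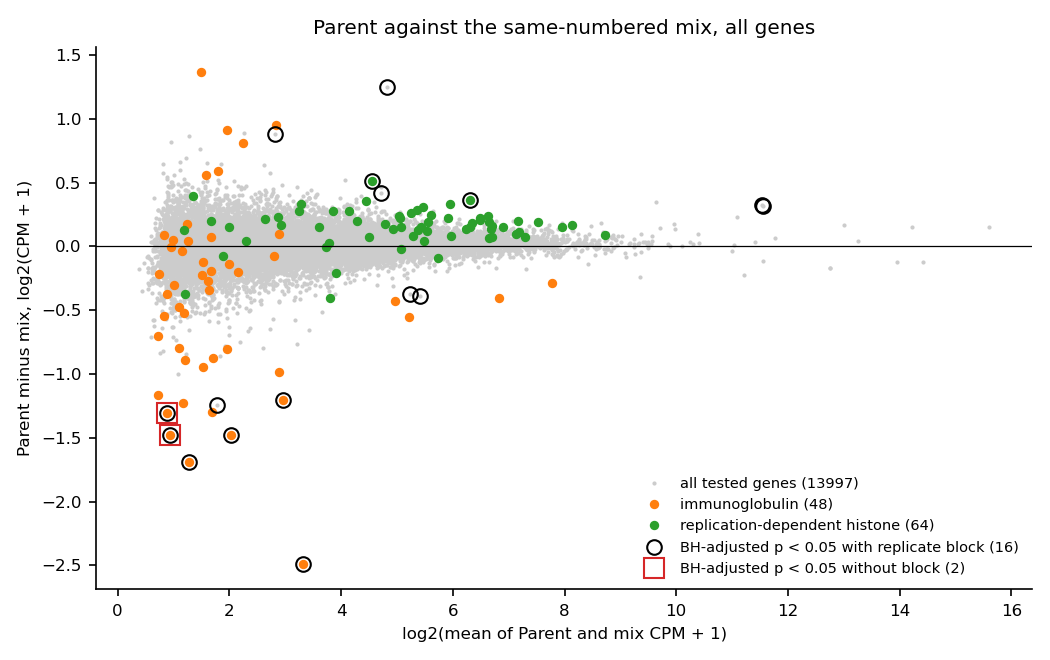
Parent minus mix (log2 of CPM plus 1, log-scale share) against the level of each of 13997 tested genes, with immunoglobulin genes in orange, replication-dependent histones in green, circles around the 16 genes called with the replicate block and squares around the 2 called without it. Immunoglobulin genes reach -2.49 below 0 and histones cluster above 0, with a median of 0.16.

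Among the gene lists, immunoglobulin genes lay furthest below the mix. They encode antibody chains and are textbook products of B cells and plasma cells, each clone of which uses its own rearranged variable genes. Of 155 listed, 48 were tested, and 40 of these were called higher and 3 lower in the Syndecan-2+ fraction, beside 2874 higher (20.5%) and 1331 lower (9.51%) of all tested genes. Against the mix 36 of the 48 stood below and 12 above, with a median of -0.32, beside 0.02 over all genes, and 2 were called below without and 6 with the block, beside 0.0143% and 0.0643% of all genes. By replicate number the medians were -0.715, -0.0860 and -0.368, so number 2 lay nearest to its mix. The count below the mix was 36 under TMM rescaling too, with a median of -0.33.

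Igkv6-32 (chromosome 6, 70074024 to 70074603), a kappa light chain variable gene, was at 0 in all 3 Parent libraries, against 1.86, 1.22 and 2.39 CPM in the mixes. It had 6.10, 3.98 and 8.28 CPM in Syndecan-2+ libraries and was at 0 in the 3 Syndecan-2- libraries. Set against the level of 3 reads in each Parent library, Parent was at least 9.58-fold, 6.90-fold and 13.4-fold lower than the mix. The fitted log2 difference was -1.48 (SE 0.21, limma adjusted p = 0.0481, and 0.0100 with the replicate block). Ighv1-58 (chromosome 12, 115312166 to 115312599), a heavy chain variable gene, had 0.129, 0.0588 and 0 CPM in Parent libraries, against 1.86, 1.56 and 1.48 CPM in the mixes, 5.88, 4.88 and 4.34 CPM in Syndecan-2+ and 0.106, 0.102 and 0.316 CPM in Syndecan-2- libraries. Parent and mix values did not overlap for either gene, and Parent lay at the level of Syndecan-2- libraries. For Ighv1-58 the log2 difference was -1.31 (SE 0.19, limma adjusted p = 0.0481, and 0.0130 with the block). Both calls were lost under TMM rescaling (limma adjusted p = 0.0546 for each), with the share fitted on the called genes (0.0790) and at a pseudocount of 5 (0.147). The differences themselves moved little on the main scale, to -1.47 and -1.31 under TMM rescaling and to -1.41 and -1.26 with the share fitted on the called genes, for Igkv6-32 and Ighv1-58 in that order. Without replicate 1 neither gene was called (limma adjusted p = 0.820 for each), with differences of -1.46 and -1.29, nor without replicate 3 (0.316), and without replicate 2 Igkv6-32 alone was called (0.0380).

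4 more immunoglobulin genes were called with the block and not without it. Ighv1-22 had 0.270, 0 and 0 CPM in Parent libraries, against 4.74, 1.96 and 1.49 CPM in the mixes, a log2 difference of -1.69 (limma adjusted p = 0.114 without and 0.0034 with the block). Without the block it was called with robust eBayes (limma adjusted p = 0.0401) and with the weighted share (0.0411). Igkv1-135 had 7.49, 1.35 and 2.62 CPM in Parent libraries, against 17.4, 5.98 and 5.81 CPM in the mixes (-1.20, limma adjusted p = 0.0034 with the block). Ighv1-22 and Igkv1-135 were at 0 in all Syndecan-2- libraries. Iglc1, a lambda light chain constant gene, had 0.258, 12.2 and 0 CPM in Parent libraries, against 8.83, 17.6 and 15.2 CPM in the mixes (-2.49, limma adjusted p = 0.0267 with the block), and Iglv1, a lambda variable gene, had 0.194, 3.76 and 0.517 CPM, against 4.79, 4.98 and 4.39 CPM (-1.48, 0.0495). For both lambda genes the Parent library of number 2 was the high one, and the Iglc1 values of Parent and mix overlap through it. Without replicate 2 both were called without the block, Iglc1 at -3.49 (limma adjusted p = 8.9e-05) and Iglv1 at -2.05 (limma adjusted p = 0.0048). Variable genes of the same family are alike in sequence, so counts of single members are uncertain.

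The most abundant antibody transcripts lay below the mix by less. Igkc, the kappa constant gene, had 112, 77.9 and 100 CPM in Parent libraries, against 162, 120 and 105 CPM in the mixes, 531, 391 and 361 CPM in Syndecan-2+ and 0, 0.102 and 1.42 CPM in Syndecan-2- libraries (-0.41, limma adjusted p = 0.0633 with the block). Jchain, the joining chain of secreted antibody, had 24, 22.3 and 31.2 CPM in Parent libraries, against 41.5, 28.7 and 34.9 CPM in the mixes (-0.42, limma adjusted p = 0.173 with the block). Ighm, the mu heavy chain, had 187, 184 and 216 CPM in Parent libraries, against 267, 238 and 214 CPM in the mixes (-0.29), and Igha, the alpha heavy chain, 35.3, 30.7 and 21.3 CPM, against 52.6, 30.8 and 46.2 CPM (-0.55). In number 3 Ighm in Parent stood level with its mix, and in number 2 Igha did. Not every member lay below. Igkv14-126 had 9.75, 6.88 and 8.16 CPM in Parent libraries, against 1.95, 4.96 and 5.06 CPM in the mixes (0.95), and Igkv19-93 had 0.710, 3.65 and 4.82 CPM, against 1.56, 0 and 0.0476 CPM (1.37), neither called with the block (limma adjusted p = 0.183 and 0.50).

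Summed over the 155 listed genes, immunoglobulin RNA was 474, 451 and 500.0 CPM in Parent libraries, against 1994, 1616 and 1594 CPM in Syndecan-2+ and 153, 124 and 131 CPM in Syndecan-2- libraries. Those sums place Parent at 0.174, 0.219 and 0.252 between the fractions. The log-scale share fitted on the immunoglobulin genes alone was 0.128, 0.201 and 0.135, below the 0.304, 0.306 and 0.289 over all genes in each number. Members that passed the filter through Syndecan-2+ libraries alone by themselves favour a lower share. Of 9 plasma cell markers tested, 6 were called higher and 1, Sdc1, lower in the Syndecan-2+ fraction, beside 20.5% and 9.51% of all tested genes. The log-scale share of the 9 markers was 0.220 ± 0.0341 (SD, n = 3). Against the mix 4 of the 9 stood above and 5 below, with a median of -0.004, and Jchain belongs to this list and to the immunoglobulin list. The 12 listed plasma cell markers summed to 120, 116 and 138 CPM in Parent libraries, against 250, 200 and 229 CPM in Syndecan-2+ and 95.3, 82.3 and 97.2 CPM in Syndecan-2- libraries. Jchain alone held 136, 93.2 and 119 CPM of the Syndecan-2+ sums and 0, 0.305 and 0.789 CPM of the Syndecan-2- sums. The 11 listed B cell markers summed to 11, 18.3 and 12.2 CPM in Parent libraries, against 9.25, 8.68 and 9.29 CPM in Syndecan-2+ and 19.2, 25.8 and 20.2 CPM in Syndecan-2- libraries. Summed B cell and plasma cell markers thus differ in the fraction that holds more of them, the plasma cell sum largely through Jchain. Their part in the immunoglobulin differences was not tested.

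Ebf1, a transcription factor that sets the B cell fate, was the B cell marker furthest from the mix. It had 2.07, 2.47 and 1.81 CPM in Parent libraries, against 3.43, 3.98 and 4.03 CPM in the mixes, 1.46, 0.485 and 0.591 CPM in Syndecan-2+ and 4.29, 5.52 and 5.43 CPM in Syndecan-2- libraries (-0.63, limma adjusted p = 0.97 without and 0.346 with the block). Parent and mix values did not overlap, and the difference was not called. The position of Ebf1 was 0.700, far from the 0.228 of Flt3 and the 0.287 of Dntt, which are also lower in Syndecan-2+. All 5 tested B cell markers stood below the mix, with a median of -0.22.

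Replication-dependent histones stood above the mix as a group. These genes lie in clusters, encode the core and linker histones that package newly made DNA in S phase, and give messages that end in a stem loop in place of a poly(A) tail. Of 68 listed, 64 were tested, and 57 of these stood above the mix and 7 below, with a median of 0.16, beside 58.0% above and a median of 0.02 over all genes. By replicate number the medians were 0.078, 0.184 and 0.185. In every number 36 of the 64 stood above their mix and 2 below, beside 17.6% and 9.92% of all genes. All 5 linker histone genes, 29 of 35 H2A and H2B genes, 11 of 11 H3 genes and 12 of 13 H4 genes stood above. Under TMM rescaling 56 stood above, with a median of 0.13. None was called without the block and 2 were called above with it, while 24 above and 0 below had an unadjusted p under 0.05, beside 293 above (2.09%) and 163 below (1.16%) of all genes.

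The promoters of both called histone genes are shown because most histone genes lay on the same side of the mix. They are the 250 bases before the transcription start, 5′ to 3′, from RefSeq on GRCm38.p6, where the genes are named H4c6 and H2ac6. Hist1h4f is at chr13:23551669-23551918 and Hist1h2ac at chr13:23683960-23684209, both on the minus strand, and capitals mark the motifs TATAA and CCAAT on either strand.
Hist1h4f: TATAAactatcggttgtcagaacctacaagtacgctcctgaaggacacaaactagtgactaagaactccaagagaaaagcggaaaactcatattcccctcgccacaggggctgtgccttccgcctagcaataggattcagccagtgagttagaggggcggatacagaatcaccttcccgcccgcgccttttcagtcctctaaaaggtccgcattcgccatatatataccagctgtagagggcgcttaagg
Hist1h2ac: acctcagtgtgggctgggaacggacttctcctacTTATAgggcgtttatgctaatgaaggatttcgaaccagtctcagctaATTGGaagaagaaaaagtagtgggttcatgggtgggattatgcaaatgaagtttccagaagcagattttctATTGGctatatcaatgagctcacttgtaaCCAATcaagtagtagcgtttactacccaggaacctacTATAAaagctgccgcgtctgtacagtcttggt
TATAA was found in 36 of 55 histone promoters that matched a RefSeq entry (65.5%), beside 7485 of 32851 promoters of the same length (22.8%), and CCAAT in 45 of 55 (81.8%), beside 11120 of 32851 (33.9%). In Hist1h4f the TATAA match lies at the far upstream end of the window, and in Hist1h2ac a match lies close to the start. The motifs do not overlap each other in either window. A match is a description of the letters and not a bound site.

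Hist1h4f (chromosome 13, 23551258 to 23551648), an H4 gene, had 29.1, 25.6 and 24.8 CPM in Parent libraries, against 19.1, 16.9 and 18.7 CPM in the mixes. It had 26.1, 25.4 and 26.2 CPM in Syndecan-2+ and 16.1, 13.1 and 15.7 CPM in Syndecan-2- libraries, so Parent overlapped Syndecan-2+ and lay above every Syndecan-2- value. The difference from the mix was 0.51 (SE 0.09, limma adjusted p = 0.218 without and 0.0130 with the block). Hist1h2ac (chromosome 13, 23683449 to 23683924), an H2A gene, had 93.4, 85.5 and 84.5 CPM in Parent libraries, against 75.6, 64.7 and 64.2 CPM in the mixes, 72.4, 83.2 and 73.7 CPM in Syndecan-2+ and 77.0, 56.6 and 60.4 CPM in Syndecan-2- libraries. Every Parent value lay above all 6 fraction values, by a small margin. The difference from the mix was 0.36 (SE 0.08, limma adjusted p = 0.425 without and 0.0108 with the block). Hist3h2a had 49.6, 47.0 and 46.4 CPM in Parent libraries, against 38.9, 39.8 and 35.9 CPM in the mixes (0.31, limma adjusted p = 0.0701 with the block), and it and Hist1h4j were the other histones above all 6 fraction values. Such values were thus seen in 3 of 64 tested histones, beside 116 of all 13997 tested genes (0.829%). The lowest was Hist2h2aa1, with 15.6, 9.85 and 7.90 CPM in Parent libraries, against 18.6, 10.9 and 14.9 CPM in the mixes (-0.40). Histone genes are alike in their coding sequence, so counts of single members are uncertain.

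Summed over the 68 genes, histone RNA was 4259, 4137 and 4265 CPM in Parent libraries, against 4579, 4452 and 4250.4 CPM in Syndecan-2+ and 3739, 3193 and 3614 CPM in Syndecan-2- libraries. The Parent and Syndecan-2+ sums overlap, and all Syndecan-2- sums are lower. Between the fractions 34 of 64 histones were higher in Syndecan-2+ and 0 lower, beside 20.5% and 9.51% of all genes. The log-scale share on the histones alone was 0.666, 0.673 and 0.688, above the share over all genes in each number. Of 30 tested DNA replication genes, whose products act in S phase as well, 23 stood above the mix, with a median of 0.05. Their log-scale share of 0.225, 0.306 and 0.187 rests on a list in which 2 members were higher and 7 lower in Syndecan-2+. Mitosis genes had 20 of 28 above, a median of 0.06 and a log-scale share of 0.388 ± 0.0144 (SD, n = 3). No gene of either list was called with or without the block. The share of ribosomal RNA in the listed CPM, given above, was higher in Parent than in Syndecan-2- in each number, and its part in the histone difference was not tested.

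**Figure D5:**
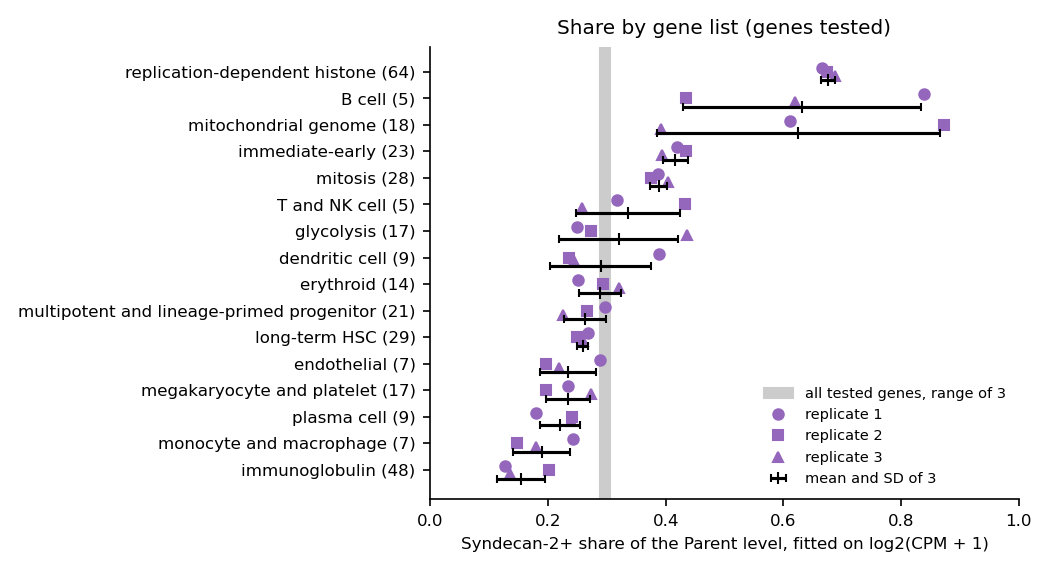
Log-scale Syndecan-2+ share w (no unit) fitted within gene lists that have at least 5 tested members and of which most differ between the fractions, with a marker for each of 3 replicate numbers, and a grey band for the range over all genes. Stem cell, progenitor and megakaryocyte lists lie near or under the band, the immunoglobulin list lies under it at 0.128 to 0.201, and the histone list over it at 0.666 to 0.688. Other lists over it in every number include the B cell list (5 genes, 0.435 to 0.839) and the mitochondrial genome list (0.393 to 0.872), with a wider spread.

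On the log scale, the programs that separate stem cells from progenitors gave shares close to each other. Between the fractions 20.5% of all tested genes were called higher and 9.51% lower in Syndecan-2+. Of the 29 long-term stem cell genes tested, all 29 were higher in Syndecan-2+ libraries, and their log-scale share was 0.268, 0.250 and 0.260. The 21 multipotent and lineage-primed progenitor genes, of which 18 were lower in Syndecan-2+, gave 0.296, 0.266 and 0.225. The 17 megakaryocyte and platelet genes, 16 of them higher in Syndecan-2+, gave 0.233, 0.197 and 0.272, and 14 erythroid genes gave 0.251, 0.294 and 0.321. Summed, the 30 long-term stem cell genes listed had 1239, 1143 and 1365 CPM in Parent libraries, against 2079, 1956 and 2320.1 CPM in Syndecan-2+ and 824, 847 and 919 CPM in Syndecan-2- libraries. The summed progenitor genes had 1990.0, 2144 and 2048 CPM in Parent libraries, against 575, 889 and 506 CPM in Syndecan-2+ and 2525, 2594 and 2503 CPM in Syndecan-2- libraries. Neither sum overlapped between the populations. The stem cell sums place Parent at 0.331, 0.266 and 0.318 between the fractions, and the progenitor sums at 0.275, 0.264 and 0.228. Least squares on CPM gave shares of 0.365, 0.285 and 0.364 for the stem cell list and 0.283, 0.281 and 0.236 for the progenitor list. By both measures the stem cell genes gave the higher value in each number, in number 2 by little.

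Single members of these programs lay near the mix, and none was called with or without the block. Of the stem cell genes 22 of 29 stood below the mix (median -0.05), of the megakaryocyte genes 14 of 17 (median -0.09), and of the progenitor genes 17 of 21 stood above it (median 0.05). Under TMM rescaling 12 progenitor genes stood above and 9 below, while the stem cell and megakaryocyte counts stayed the same. The mix used a mean share of 0.30, and the log-scale share over genes called between the fractions was 0.272. A higher share by itself sets genes higher in Syndecan-2+ lower against the mix, and genes lower in Syndecan-2+ higher. The directions of the lists under that lower share were not tested. With the least squares share over the called genes (mean 0.280), Vwf and Pf4, described next, still lay below the mix, at -0.235 and -0.309, without a call. Vwf was the stem cell gene with the smallest p, with 27.7, 25.1 and 25.2 CPM in Parent libraries, against 37.1, 29.1 and 31.7 CPM in the mixes (-0.31, limma adjusted p = 0.195 with the block). Pf4, a platelet chemokine, had 13.4, 10.4 and 12 CPM in Parent libraries, against 17.4, 14.4 and 15.4 CPM in the mixes (-0.37, limma adjusted p = 0.285 with the block). Gp1bb, a subunit of the platelet receptor for von Willebrand factor, had 1.39, 0.947 and 1.21 CPM, against 2.20, 2.12 and 2.01 CPM (-0.52, 0.655). For these 3 genes no Parent value reached a mix value. Cd34 lay on the other side, with 178, 174 and 170 CPM in Parent libraries, against 162, 159 and 146 CPM in the mixes (0.16, limma adjusted p = 0.493 with the block).

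The remaining calls with the block are short noncoding, pseudogene and model transcripts, named after their values were seen. Rps12l1, a processed pseudogene copy of the ribosomal protein gene Rps12, had 47.3, 32.5 and 33.2 CPM in Parent libraries, against 28.1, 10.8 and 10.9 CPM in the mixes (1.25, limma adjusted p = 0.425 without and 0.00028 with the block). Rpl17-ps4, a pseudogene copy of Rpl17, had 7.70, 11.2 and 5.94 CPM, against 3.71, 4.20 and 3.83 CPM (0.88, 0.0291 with the block). Parent lay above the mix in every number for both. Rn7s1, a 7SL RNA of the signal recognition particle, had 3201, 2792 and 3955 CPM in Parent libraries, against 2591, 2258 and 3099.7 CPM in the mixes (0.32, limma adjusted p = 0.0291 with the block), and Rn7s2, a near-identical copy, had nearly the same values. The pseudogene Gm13611 had 28.1, 32.7 and 26.9 CPM in Parent libraries, against 22.1, 21.6 and 20.9 CPM in the mixes (0.42, limma adjusted p = 0.0493 with the block). Reads of such copies can belong to their parent genes, so these values are uncertain. Below the mix were Gm28053, with 0.181, 1.31 and 1.94 CPM in Parent libraries, against 3.35, 4.16 and 3.75 CPM in the mixes (-1.24), Gm28901, with 37.2, 32.7 and 37.3 CPM, against 43.3, 47.6 and 50.4 CPM (-0.39), and Gm29257, with 30.4, 33.9 and 31.6 CPM, against 39.7, 44.1 and 41.1 CPM (-0.37).

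No gene was called outside both fractions. The test asks that Parent differ from Syndecan-2+ and from Syndecan-2- in the same direction and takes the larger of the 2 p-values, so it does not depend on any share, and both contrasts share the Parent libraries. In limma 0 of 13997 genes passed (0%), the smallest adjusted p was 1, and with the block it was 0.832. At an unadjusted p under 0.05, 59 genes passed, 32 above and 27 below, and 113 with the block. For comparison, 2409 genes were called between Parent and Syndecan-2+ and 373 between Parent and Syndecan-2-. With each contrast adjusted on its own, Rpl17-ps4 alone passed, at 1.08 above Syndecan-2+ (limma adjusted p = 0.0011) and 0.81 above Syndecan-2- (limma adjusted p = 0.0445).

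By values alone, 116 genes had all 3 Parent libraries above all 6 fraction libraries (0.829%) and 53 had them below (0.379%). Under TMM rescaling the counts were 92 above and 88 below, and under quantile normalization 96 above and 106 below, so the excess above depends on the scaling. Of these 169 genes, 136 are protein coding (80.5%, beside 82.4% of all tested genes) and 19 are pseudogenes (11.2%, beside 8.49%). Of the 169, 0 are immunoglobulin genes, where immunoglobulin and T cell receptor segments make up only 0.357% of all tested genes. Under 5 CPM on average are 64 (37.9%, beside 32.0%). The median of the smaller of their 2 log2 differences was 0.21 in size, and 10 of the 169 passed 0.5. Within replicate numbers, where each Parent library has only to lie outside its own 2 fractions, 483 of the 13997 tested genes stood above and 251 below. Whether any of these counts exceeds what the spread of the libraries alone gives was not tested.

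The genes described next were named after their values were seen, and none was called outside both fractions. U2af1, a splicing factor that reads the end of introns, had 6.77, 6.61 and 7.36 CPM in Parent libraries, against 5.93, 4.81 and 4.91 CPM in Syndecan-2+ and 5.26, 4.32 and 4.64 CPM in Syndecan-2- libraries. Pvt1, a noncoding RNA next to Myc, had 1.20, 1.29 and 1.72 CPM in Parent libraries, against 0.438, 0.662 and 0.460 CPM in Syndecan-2+ and 0.787, 0.527 and 0.684 CPM in Syndecan-2- libraries. Both were higher in every Parent library than in any fraction library. Mgmt, a DNA repair enzyme that removes alkyl groups from guanine, had 2.39, 1.88 and 2.08 CPM in Parent libraries, against 4.32, 3.98 and 5.44 CPM in Syndecan-2+ and 2.97, 2.85 and 3.79 CPM in Syndecan-2- libraries. Kif7, a kinesin of Hedgehog signalling, had 4.32, 3.90 and 3.8 CPM in Parent libraries, against 6.35, 6.18 and 7.91 CPM in Syndecan-2+ and 4.92, 5.23 and 6.26 CPM in Syndecan-2- libraries. Nudcd1 had 7.64, 5.88 and 8.35 CPM in Parent libraries, against 10.1, 9.43 and 9.86 CPM in Syndecan-2+ and 10.0, 10.2 and 9.79 CPM in Syndecan-2- libraries. These 3 were lower in every Parent library than in any fraction library.

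Groups that answer to handling and growth were also set against the mix, and no member of the lists named here was called with or without the block. Of 23 immediate-early genes, transcription factors and phosphatases induced within minutes of a stimulus, 19 stood above the mix (median 0.06), and their log-scale share was 0.420, 0.435 and 0.394. Of 18 heat shock genes 14 stood above (median 0.08), but their levels followed the replicate number. Hspa1a, an inducible chaperone, had 365, 1800.0 and 35.0 CPM in Parent libraries, against 159, 2397 and 28.9 CPM in the mixes, so Parent lay above its mix in numbers 1 and 3 and below it in number 2. Of 26 interferon-induced genes 19 stood above (median 0.05), of 20 cholesterol synthesis genes 8 (median -0.01), of 17 glycolysis genes 11 (median 0.04), and of 24 tested syndecan, glypican and heparan sulfate genes 14 (median 0.05). Under TMM rescaling the medians of the interferon-induced, progenitor and DNA replication lists were 0.02, 0.02 and 0.01.

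Messages of ribosomal proteins, genes of the mitochondrial genome and small RNAs were set against the mix as well. Of 83 tested ribosomal protein genes 59 stood above the mix (median 0.04), and their log-scale share of 0.755 ± 0.0479 (SD, n = 3) rests on a list in which only 3 members differ between the fractions. The list counts the pseudogene Rps12l1, described above, which was its only member called, and only with the block. Of 18 genes of the mitochondrial genome 16 stood above (median 0.15), with log-scale shares of 0.611, 0.872 and 0.393. The 30 listed genes of the mitochondrial genome summed to 28151 to 35399 CPM in Parent, 32256 to 33674 CPM in Syndecan-2+ and 25493 to 27729 CPM in Syndecan-2- libraries. mt-Nd5, a subunit of respiratory complex I, had 479, 411 and 389 CPM in Parent libraries, against 390, 362 and 370 CPM in the mixes (0.18, limma adjusted p = 0.410 with the block). Parent lay above the mix in each number, and its spread over the Parent libraries exceeded that over the mixes. Of 79 small nucleolar and nuclear RNAs 30 stood above and 49 below (median -0.06), and 0 were called with or without the block.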

How the data were processed

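RNA was measured in 9 libraries, 3 from each of 3 sorted populations. The authors deposited CPM for 58094 transcripts (20635 gene symbols), with a column for each library, per the file headers. STAR, Bowtie2 and the build GRCm38 come from the submitters' processing notes, which give no version. How reads were counted and what total the CPM refer to are not stated there. The value 0.0001 stands for no reads and was subtracted everywhere. Low genes came out as whole reads (within 0.1 read) for only 67.3 to 69.1% of values, so no count test was run. No library was identical to another (0 pairs).

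CPM were added up over the transcripts of each gene symbol, and a gene was tested if it reached 1 CPM in 3 or more libraries. The share w was fitted per replicate number by least squares on CPM, as first planned, and on log2 of CPM plus 1. The log-scale and median-absolute-error shares were searched between 0 and 1. Mixes were made on the CPM scale, with negative values set to 0, and tested in limma 3.58.1 (R 4.3.3, eBayes with trend) on log2 of CPM plus a pseudocount of 1, 3 Parent libraries against 3 mixes, with Benjamini-Hochberg adjustment at 0.05. The mixes share no library with Parent, but w was fitted to Parent. Parent minus each fraction was tested with all 9 libraries in a single fit. Sdc2 was also compared with an exact permutation test. The code was tested on simulated data. Tables and figures used Python 3.11.15, pandas 2.3.3 and matplotlib 3.10.9, and promoter sequences are from RefSeq.

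Same-numbered libraries deviated together: their deviations from the population means correlated at 0.117 to 0.259 (9 pairs), and those of other pairs at -0.206 to 0.0048 (18 pairs). Deviations within a population cancel out, so positive values at the same number by themselves lower those of other pairs. The numbers were treated as pairing the libraries, though the labels do not say what a number marks. The members and gene lists were chosen with earlier results of these data known. Named genes are Sdc2, landmark genes, genes called outside both fractions, the largest differences from the mix among called genes without overlap, and, for each list, the members of lowest p (at most 4). The size part was applied to the log-scale mix. Genes called only with the block, ribosomal RNA genes, the genes outside both fractions, Hspa1a, Pvt1 and the immunoglobulin and histone examples beyond the rule were named after their values were seen. The immunoglobulin list was corrected after the data were seen, by leaving out Ighmbp2, which is no immunoglobulin gene.

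Alternatives were a pseudocount of 0.1 or 5, a filter at 10 CPM or none, TMM factors computed on the CPM values, quantile normalization, other ways of fitting w, the replicate block, eBayes without trend or robust, a threshold of 0.1, transcripts in place of genes, and leaving out each library or replicate number. The log-scale mix as the mix described, the weighted share with the block and the share without immunoglobulin genes were chosen after seeing the data.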

Additional observations from a re-analysis of the deposited data

How the results depend on the processing

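The share fitted on CPM (mean 1.10) moved to 0.280 over the called genes alone, 0.30 on the log scale, 0.351 weighted, 0.312 by median absolute error, 0.687 after quantile normalization and 0.501 without the 10 most abundant genes. Leaving out a replicate number gave 0.875 to 1.25. The log-scale share (0.30) moved to 0.351 weighted, 0.319 weighted with the other numbers as instrument, 0.311 with TMM factors, 0.272 over called genes and 0.318 without immunoglobulin genes, and leaving out a number gave 0.297 to 0.305. The 611 calls against the CPM-scale mix became 303 and 950 at pseudocounts of 0.1 and 5, 209 at 10 CPM, 0 with TMM factors, 3 with quantile normalization, 2675 with a single mean w, 0 with w over called genes, 872 with the replicate block, 134 with block and TMM factors, 255 without trend, 926 robust, 2 with the log-scale share, 1559 at a threshold of 0.1 and 0 over transcripts. Leaving out a number gave 0 (without number 3) to 1086 (without number 1).

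The 2 calls against the log-scale mix became 1 and 0 at pseudocounts of 0.1 and 5, 0 at 10 CPM, with TMM factors, with quantile normalization, with w over called genes and over transcripts, 1 without trend, 16 with the block, 16 with block and TMM factors (15 of them shared), 28 with the weighted share and block, and 24 with the share without immunoglobulin genes and block. Leaving out a number gave 0 to 6, with the 6 without number 2. Outside both fractions the 0 calls became 1 with each contrast adjusted on its own. The 169 genes without overlap became 307 without a filter, 79 at 10 CPM and 734 within replicate numbers, and 250 to 641 with a library left out. Sdc2 against the log-scale mix (0.07, not called) turned to -0.044 without replicate 2 (0.141 without replicate 1) and to -0.040 with the weighted share, and the cause of these changes was not tested. The calls of Sdc2 between Parent and each fraction held under all alternatives run. The depth limits all genes near 0.146 to 0.194 CPM, such as Igkv6-32 and Ighv1-58 in Parent libraries.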
